A study of Mus musculus with 10 samples.

Results

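The expression of 10 genes of insulin-like growth factor (IGF) and insulin signalling was examined in the tibialis anterior muscle of mice with and without a tumor, of 39179 gene identifiers in each deposited table. They were taken by name as genes of the pathway and comprised 1 ligand (Igf1), 3 receptors (Igf1r, Igf2r and Insr), 2 receptor substrates (Irs1 and Irs2) and 4 IGF binding proteins (Igfbp3, Igfbp4, Igfbp5 and Igfbp6). All 10 passed the filter on low counts and were among the 12690 genes tested. The study compared 4 Control mice with 6 mice carrying Lewis Lung Carcinoma (LLC). This transplanted mouse tumor cell line is a model of cancer cachexia, the loss of muscle and body weight that accompanies many cancers. LLC mice received 750000 LLC cells in phosphate-buffered saline (PBS) under the skin of each flank and Control mice received PBS alone. The sample labels give C57BL/6J mice injected at 10 weeks of age and muscle taken at 23 days. The tumor day of the samples is 23 for LLC and 0 for Control, which does not itself say when Control muscle was taken. The design text of the series instead gives C57BL/10 males of 8 weeks studied at 22 days, and the labels do not settle which is right. Per the methods, the 6 LLC mice were animals that lived to the end of the experiment, so animals that died earlier were not sampled. Each mouse gave 1 library of whole muscle, and the difference between the groups covers the tumor together with every bodily change that came with it.

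IGF1 is a growth factor made by liver and by muscle itself, where it acts on the cells around it. It binds the IGF1 receptor, insulin binds the insulin receptor, and both receptors phosphorylate the adaptor proteins IRS1 and IRS2, which recruit PI3 kinase and activate Akt. Akt favours protein synthesis and glucose uptake and keeps the FoxO transcription factors, which drive genes of muscle protein breakdown, out of the nucleus. The IGF binding proteins hold IGFs outside the cell, prolong their life and set how much can reach a receptor, and the IGF2 receptor takes up IGF2 for degradation without passing on a growth signal.

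The DNA just before the transcription start is shown for Igf1, Igfbp5 and Igfbp6, the 3 members that passed the test in the comparison with or without the library LLC 1, with Igf1r beside them as an example of a member with many more CG. The sequences are RefSeq's, build GRCm38.p6, and hold the 250 bases before the start, 5′ to 3′ on the strand of the gene. RefSeq's starts need not be those of the gene spans given with each member. Capitals mark each CG, the dinucleotide that vertebrate DNA methylation acts on. The regions are chr10:87860861-87861110 on the plus strand for Igf1, chr1:72874866-72875115 on the minus strand for Igfbp5, chr15:102143936-102144185 on the plus strand for Igfbp6 and chr7:67952007-67952256 on the plus strand for Igf1r.
Igf1: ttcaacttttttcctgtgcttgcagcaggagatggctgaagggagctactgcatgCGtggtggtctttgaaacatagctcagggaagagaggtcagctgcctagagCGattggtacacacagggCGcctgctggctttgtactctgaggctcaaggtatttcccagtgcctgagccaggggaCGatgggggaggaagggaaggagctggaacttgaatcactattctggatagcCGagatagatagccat
Igfbp5: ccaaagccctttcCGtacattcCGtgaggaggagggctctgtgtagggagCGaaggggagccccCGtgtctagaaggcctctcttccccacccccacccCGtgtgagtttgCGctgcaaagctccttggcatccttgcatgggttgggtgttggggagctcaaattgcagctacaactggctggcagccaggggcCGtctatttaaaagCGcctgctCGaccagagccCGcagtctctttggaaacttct
Igfbp6: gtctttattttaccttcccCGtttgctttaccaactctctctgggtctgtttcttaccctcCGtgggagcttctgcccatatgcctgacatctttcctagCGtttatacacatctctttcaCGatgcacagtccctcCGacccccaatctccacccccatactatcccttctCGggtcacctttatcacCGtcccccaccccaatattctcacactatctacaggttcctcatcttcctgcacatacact
Igf1r: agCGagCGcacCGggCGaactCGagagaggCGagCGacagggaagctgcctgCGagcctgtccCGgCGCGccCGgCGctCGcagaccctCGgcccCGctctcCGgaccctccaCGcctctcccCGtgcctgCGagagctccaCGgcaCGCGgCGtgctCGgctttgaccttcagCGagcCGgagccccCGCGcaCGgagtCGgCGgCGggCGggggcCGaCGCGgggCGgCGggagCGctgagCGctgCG
Of the 10 members, 9 were in the promoter table and Insr was not. Igf1, Igfbp5 and Igfbp6 held 5, 10 and 7 CG in their windows, against a median of 6 over 32851 promoters in the table. The other 6 held between 22 (Igfbp4) and 42 (Igf1r) CG, well above that median, whereas those 3 lay near it. This contrast was seen with the values in view, and a link between CG and the difference in LLC was not tested. The binding motifs of 4 factors that act in wasting muscle were searched on both strands. The FoxO motif GTAAACA was in 3.17% of all promoters, the AP-1 motif TGACTCA in 4.46% and the STAT motif TTCNNNGAA in 7.02%, and none of these letter runs was in any of the 9 member windows. The NF-kB motif was in 3.9% of all promoters and in 1 member window, that of Igfbp5, where it began 196 bases before the start. As this was the only match, no motifs overlapped in a member window, and a match or its lack describes these letters only.

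Total counts were 19294257 to 21303084 in Control and 16693209 to 19962335 in LLC libraries. Values are counts per 1000000 (CPM) of a library total scaled by TMM factors. The smallest level taken as detected, 3 counts, corresponded to 0.141 to 0.180 CPM of the library total before TMM scaling. The summed level of 10 muscle fibre markers was 142923 to 151880 CPM in Control and 102333 to 158406 in LLC. Among LLC libraries, LLC 1 stood apart. Its chi-square per degree of freedom against the other LLC libraries was at least 111, against at most 56.4 among the others, and it had the lowest sum of muscle fibre markers. LLC 5 was the next most distant, at 42.0 to 56.4 against LLC 2 to LLC 4 and 25.8 against LLC 6, where LLC 2, LLC 3, LLC 4 and LLC 6 were at 7.92 to 22.0 among themselves. The share of counts from mitochondrially encoded genes was 28.4% to 30.7% in Control and 22.0% to 27.9% in LLC, lowest in LLC 1 (22.0%) and LLC 5 (22.9%). With these genes left out, 716 genes and 1 member passed the threshold given below by edgeR, against 715 and 1 with them. Whether the lower share goes with other differences between the samples was not tested. Results that turn on LLC 1 are given with and without it.

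By the quasi-likelihood test of edgeR, with adjustment over all genes by the Benjamini-Hochberg method, 1 of the 10 members passed the threshold of an adjusted p of 0.05 and a 1.5-fold change. This was Igfbp6, which fell 2.86-fold in LLC. Over all genes tested, 5.63% passed in either direction, 3.99% as lower and 1.65% as higher, and 1 member of 10 is too close to that background to be read as a result about the members as a set. The ligand Igf1 had a mean 2.08-fold lower, and its 6 LLC values were all under its 4 Control values, with an adjusted p (edgeR) of 0.0999. The receptors and substrates had log2 fold changes between -0.45 and 0.52 and none passed. Igfbp5, the most abundant member per kilobase of exon, lay above every Control sample in 5 of 6 LLC samples and far below them in LLC 1. Without LLC 1, 3 of 10 members passed the threshold by the same edgeR test, with Igf1 and Igfbp6 lower and Igfbp5 higher, against 7.65% of all genes tested in that fit (5.37% as lower and 2.28% as higher). LLC 1 was singled out from these same data, so this count too is not read as a result about the members as a set.

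**Figure D1:**
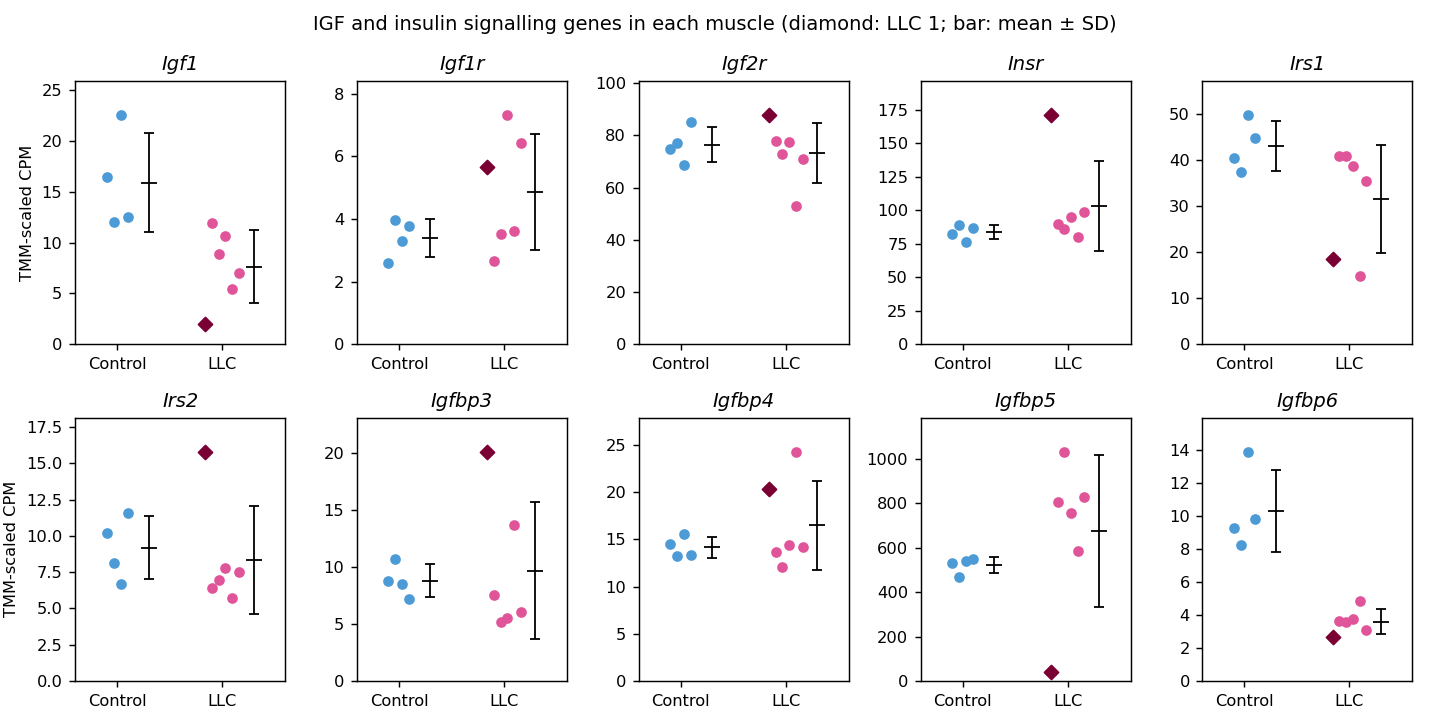
TMM-scaled CPM of each member (vertical axes, from 0) in the 4 Control and 6 LLC samples. Points are samples, the dark diamond is LLC 1, and the bar beside each group is the mean with its SD. The groups do not overlap for Igf1 and Igfbp6, and LLC 1 lies apart from the other LLC samples for Insr (171 CPM), Irs2 (15.8 CPM) and Igfbp5 (42.1 CPM).

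Igf1, the IGF1 ligand (ENSMUSG00000020053, chromosome 10, 87858265 to 87937042, plus strand, mm10), measured 16.5, 12.0, 22.6 and 12.5 CPM in the 4 Control samples. In LLC it ran from 2.01 to 11.9 CPM with a median of 7.95. All 6 LLC samples were below the lowest Control sample, although LLC 2, the highest of them at 11.9 CPM, was close to it. It amounted to a log2 fold change of -1.06 ± 0.37 (SE) with an adjusted p of 0.0999 by edgeR, which did not pass. DESeq2's Wald test gave Igf1 an adjusted p of 0.0487 and called 2 of 10 members, Igf1 and Igfbp6, both lower, where it called 8.29% of all genes and 5.23% as lower. LLC 1, with 39 counts, had 7.94 times less Igf1 than the Control mean. Without LLC 1 the difference was smaller, at -0.85 ± 0.23, but the spread was smaller too, and edgeR's adjusted p was 0.0281. Over the 10 fits that each left out 1 sample, the adjusted p by edgeR ran from 0.0281 to 0.257, highest without Control 3, the Control sample with the most Igf1. Groups that do not overlap were found for 2 of 10 members, Igf1 and Igfbp6, both lower, and for 16.0% of all genes tested (9.57% lower and 6.4% higher). Without LLC 1 they were found for 3 of 10, with Igfbp5 higher, and for 18.2% of all genes.

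The IGF1 receptor gene Igf1r (ENSMUSG00000005533, chromosome 7, 67952827 to 68233668, plus strand) was the least abundant member per kilobase of exon. It measured 2.60, 3.95, 3.30 and 3.78 CPM in Control, and 2.65 to 7.31 CPM with a median of 4.64 in LLC. Among LLC samples, LLC 1, LLC 4 and LLC 6 were above every Control sample and the other 3 lay among them, so the groups overlapped. The log2 fold change of 0.52 ± 0.28 had an adjusted p of 0.238 by edgeR. Counts per sample were 47 to 145.

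The IGF2 receptor gene Igf2r (ENSMUSG00000023830, chromosome 17, 12682406 to 12769664, minus strand), which clears IGF2 from the cell surface, varied little. Control samples measured 74.6, 77.2, 68.6 and 85.0 CPM, and LLC samples 52.9 to 87.6 CPM with a median of 75.2. The lowest LLC sample was LLC 5 and the highest LLC 1, and the other 4 lay within the Control range. No difference was detected (log2 fold change -0.06 ± 0.13, adjusted p 0.776 by edgeR).

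The insulin receptor gene Insr (ENSMUSG00000005534, chromosome 8, 3122061 to 3279617, minus strand) measured 82.1, 88.8, 76.6 and 86.6 CPM in Control. In LLC it ran from 79.7 to 171 CPM with a median of 92.0, and 4 of its 6 LLC values were above all Control values. LLC 1 had 2.04 times the Control mean, whereas the other 5 LLC samples ended at 98.3 CPM. Its log2 fold change was 0.30 ± 0.19 with an adjusted p of 0.316 by edgeR, and 0.11 ± 0.08 with an adjusted p of 0.368 without LLC 1. The small rise of the mean thus came mostly with 1 sample.

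Per kilobase of exon the level of Insr was 30.1 times that of Igf1r in Control and 26.5 times in LLC. The log2 ratio of Igf1r to Insr within a sample was -4.91 ± 0.233 (SD) in the 4 Control samples and -4.73 ± 0.538 (SD) in the 6 LLC samples. The difference of 0.18 was smaller than the SD of either group. For the difference in means, the exact permutation test over 210 splits (two-sided) gave p = 0.552, adjusted over 3 ratios 0.59. In both groups the receptor for insulin was therefore the far more abundant transcript of the pair, and no shift in their balance was detected.

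Irs1 (ENSMUSG00000055980, chromosome 1, 82233101 to 82291416, minus strand), a substrate that both receptors phosphorylate, measured 40.4, 37.3, 49.7 and 44.8 CPM in Control. LLC samples ran from 14.8 to 40.9 CPM with a median of 37.0. The low values were those of LLC 5 (14.8 CPM) and LLC 1 (18.5 CPM), and LLC 6 at 35.4 CPM was also under the lowest Control sample, while the other 3 lay within the Control range. The log2 fold change of -0.45 ± 0.27 did not pass (adjusted p 0.283 by edgeR). LLC 1 was 2.33 times under the Control mean. An antisense gene that shares exon sequence with Irs1, Gm9747, had 0 counts in all samples.

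Irs2 (ENSMUSG00000038894, chromosome 8, 10984681 to 11008458, minus strand), the second substrate and the one whose gene FoxO factors are known to activate in liver, measured 10.2, 8.15, 6.71 and 11.6 CPM in Control. LLC samples ran from 5.70 to 15.8 CPM with a median of 7.22. LLC 1 was above every Control sample and LLC 2 and LLC 5 were below all of them, and the groups overlapped. Its log2 fold change was -0.13 ± 0.27 (adjusted p 0.771 by edgeR), and -0.41 ± 0.16 (adjusted p 0.0983) without LLC 1. An antisense gene over its exons, 9530052E02Rik, had 32 counts over all samples together.

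The log2 ratio of Irs2 to Irs1 per kilobase was -1.72 ± 0.437 (SD) in the 4 Control samples and -1.36 ± 0.936 (SD) in the 6 LLC samples. In LLC 1 it was 0.31, the only sample with more Irs2 than Irs1. The difference of 0.36 between the groups was smaller than the SD of either group, and without LLC 1 it was 0.02. For the difference in means over all 10 samples, the exact permutation test (two-sided) gave p = 0.59, adjusted over 3 ratios 0.59.

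**Figure D2:**
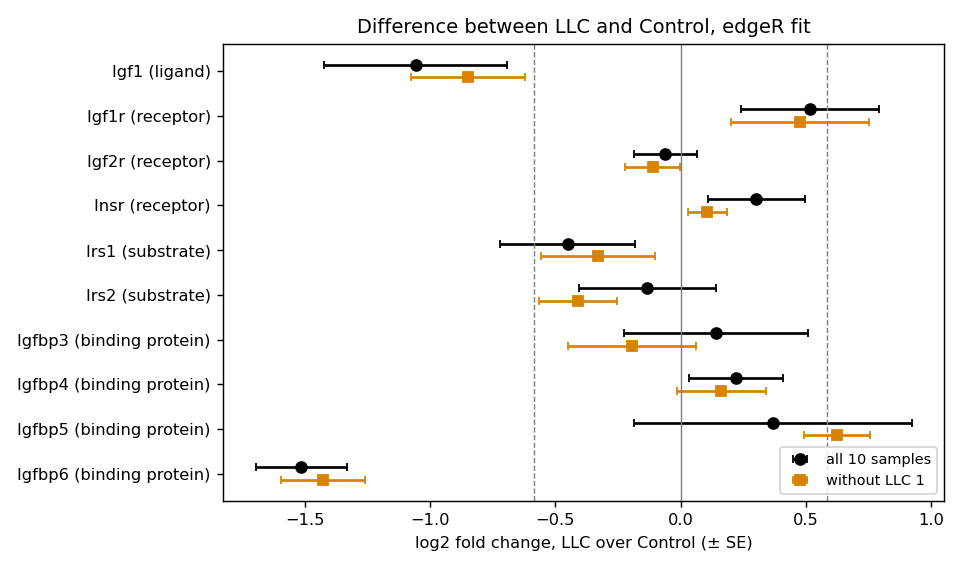
Log2 fold change of each member, LLC over Control, with its SE from the edgeR fit (horizontal axis), for all 10 samples (circles) and without LLC 1 (squares). Dashed lines mark 1.5-fold. Igfbp6 is at -1.51 and -1.43, Igfbp5 moves from 0.37 ± 0.55 to 0.62 ± 0.13, and Igfbp3 changes sign.

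The binding proteins went different ways, and a median over the 4 of 0.18 on the log2 scale described none of them well. Igfbp6 (ENSMUSG00000023046, chromosome 15, 102144362 to 102149511, plus strand), a binding protein that prefers IGF2 to IGF1, measured 9.27, 8.25, 13.9 and 9.81 CPM in Control. In LLC it ran from 2.67 to 4.86 CPM with a median of 3.60. The highest LLC sample was far under the lowest Control sample, and LLC 1 was the lowest but not apart from the rest. The mean fell from 10.3 ± 2.48 (SD, n = 4) to 3.60 ± 0.742 (SD, n = 6) CPM, a log2 fold change of -1.51 ± 0.18 with an adjusted p of 0.00059 by edgeR and 3.17e-11 by DESeq2. Its call held in all 10 fits that left out 1 sample, with adjusted p-values (edgeR) between 0.00029 and 0.00296. The coefficient of variation was 24.1% in Control and 20.6% in LLC, and Igfbp6 was the only member whose log2 CPM did not spread more widely in LLC than in Control. The other 9 of 10 members did, as did 85.1% of all genes tested.

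The tested genes whose profile over the 10 samples was nearest to that of Igfbp6 were Smoc2 and Pltp, measured by the root mean square difference of log2 CPM after subtracting each gene's Control mean. Smoc2, a secreted matrix protein and 1 of the 12 fibroblast markers listed for this work, differed by 0.156 and fell from 41.4 ± 4.39 to 16.1 ± 2.20 CPM (log2 fold change -1.36 ± 0.12, adjusted p 0.000121 by edgeR). Pltp, a phospholipid transfer protein, differed by 0.183 and fell from 5.45 ± 1.03 to 2.04 ± 0.469 CPM (-1.41 ± 0.19, adjusted p 0.00108 by edgeR). The nearest member was Igf1, at 0.634. As the 2 genes were picked as the nearest of all tested genes, no member could lie nearer than they did.

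Connective tissue cells are known sources of both Igfbp6 and Igf1 in muscle, and markers of such cells were lower in LLC. Of 12 markers of fibro-adipogenic progenitors and fibroblasts, 9 fell and 1 rose past the threshold by edgeR, and their summed level was 414 to 497 CPM in Control and 215 to 248 in LLC. Pdgfra, the receptor that defines these progenitors, fell from 6.01 ± 0.505 to 2.27 ± 0.353 CPM (SD, n = 4 and 6). Dcn, the matrix proteoglycan decorin, fell from 105 ± 9.76 to 41.0 ± 6.46 CPM, and Lum, its relative lumican, from 14.0 ± 2.34 to 2.40 ± 1.22 CPM. Of 8 tendon markers, 6 were tested and 5 fell, with sums of 64.5 to 72.7 CPM in Control and 10.1 to 29.4 in LLC. These are counts of whole muscle, in which fewer cells of a type and less RNA per cell cannot be told apart, and the part of either cell type in the fall of Igfbp6 was not tested.

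Igfbp5 (ENSMUSG00000026185, chromosome 1, 72857932 to 72874884, minus strand), a binding protein that muscle cells secrete, measured 532, 468, 540.2 and 549.8 CPM in Control. In LLC the lowest value was 42.1, the median 781 and the highest 1031 CPM. The lowest was LLC 1, at 12.4 times under the Control mean and with 819 counts, far above the detection floor. The other 5 LLC samples lay between 584 and 1031 CPM, each above the highest Control sample. With all 10 samples the log2 fold change was 0.37 ± 0.55 (adjusted p 0.683 by edgeR). Without LLC 1 it was 0.62 ± 0.13 with an adjusted p of 0.01, past the threshold that 2.28% of all genes tested in that fit passed as higher. Its coefficient of variation was 7.13% in Control and 50.6% in LLC.

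Igfbp3 (ENSMUSG00000020427, chromosome 11, 7206086 to 7213923, minus strand), the main IGF carrier of blood, measured 8.74, 10.7, 8.49 and 7.18 CPM in Control and 5.16 to 20.1 CPM with a median of 6.80 in LLC. LLC 1 (20.1 CPM) and LLC 5 (13.6 CPM) were above every Control sample, LLC 3, LLC 4 and LLC 6 were below all of them, and LLC 2 lay between. The means therefore hardly differed, with a log2 fold change of 0.14 ± 0.37 (adjusted p 0.821 by edgeR) that became -0.20 ± 0.26 (adjusted p 0.641) without LLC 1.

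Igfbp4 (ENSMUSG00000017493, chromosome 11, 99041244 to 99054392, plus strand), which is known chiefly to withhold IGF from its receptor, measured 14.5, 13.2, 15.6 and 13.4 CPM in Control and 12.0 to 24.2 CPM with a median of 14.3 in LLC. The samples above every Control sample were again LLC 5 (24.2 CPM) and LLC 1 (20.4 CPM), and the others ended at 14.4 CPM. The log2 fold change of 0.22 ± 0.19 did not pass (adjusted p 0.445 by edgeR). LLC 1 and LLC 5 were also the LLC samples with the least Igf1 and the least Irs1, which was seen with the values in view and was not tested.

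**Figure D3:**
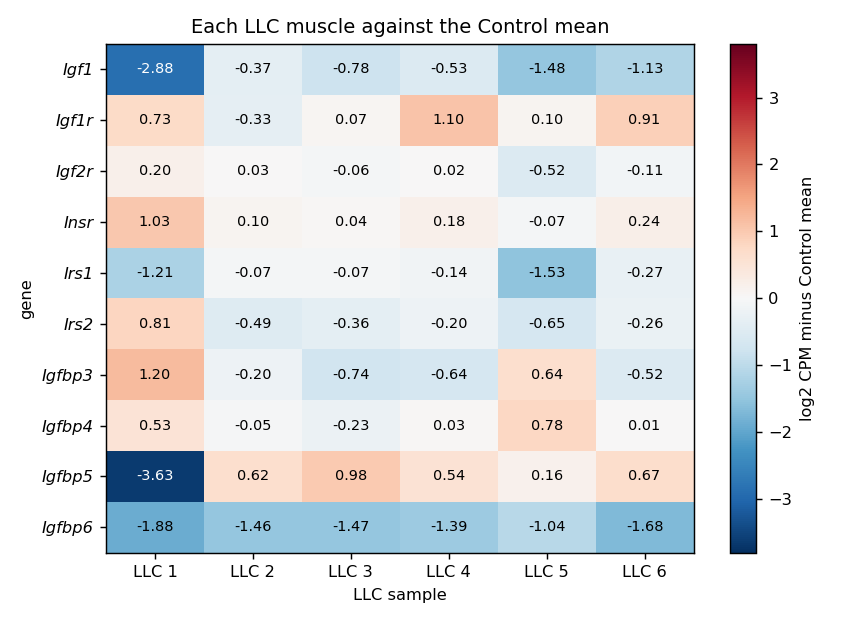
Difference of each LLC sample from the Control mean in log2 CPM (colour and printed value) for the 10 members (rows) and 6 LLC samples (columns). Igf1 and Igfbp6 are below 0 in all 6 samples, Igfbp5 is above 0 in 5 and at -3.63 in LLC 1, and LLC 1 has the widest range of differences, from -3.63 to 1.20.

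LLC 1 was the lowest or the highest of the 10 samples for 7 of 10 members. It was lowest for Igf1, Igfbp5 and Igfbp6 and highest for Igf2r, Insr, Irs2 and Igfbp3. It held such a place for 60.0% of all genes tested, so the share among members was near the background. LLC 5 was lowest for Igf2r, Irs1 and Irs2 and highest for Igfbp4.

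Compared per kilobase of exon, as CPM divided by exonic kilobases (RPKM), the order of the members in Control began with Igfbp5 at 87.0 ± 6.20 (SD, n = 4). It was followed by Igfbp6 at 9.27 ± 2.23, Igf2r at 8.20 ± 0.727, Insr at 6.08 ± 0.394 and Irs1 at 4.71 ± 0.590 RPKM. The lower part held Igfbp4 at 3.20 ± 0.250, Igfbp3 at 2.80 ± 0.460, Igf1 at 1.61 ± 0.490, Irs2 at 1.45 ± 0.344 and Igf1r at 0.203 ± 0.0361 RPKM. Neighbours in this order had separate ranges over the samples except Igfbp6 and Igf2r, Igfbp4 and Igfbp3, and Igf1 and Irs2, which were not told apart. Exonic lengths were those of all annotated transcripts together and levels per length depend on them.

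In LLC, Igfbp5 remained first at 112 ± 56.8 RPKM (SD, n = 6), followed by Igf2r at 7.87, Insr at 7.50 and Igfbp4 at 3.73 RPKM. Igfbp6 stood at 3.24 RPKM, behind Irs1, and Igf1 at 0.773 RPKM, behind Irs2. Among neighbours in the LLC order only Insr and Igfbp4 had ranges that were separate over all 6 samples. The overlap of Igfbp5 and Igf2r came from LLC 1 alone, where Igfbp5 was at 7.01 RPKM, while it was at 97.3 to 172 RPKM in the other 5 samples and Igf2r at most at 9.41. Within samples, Igfbp3 was above Irs2 in 6 of 6, although their ranges overlapped.

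**Figure D4:**
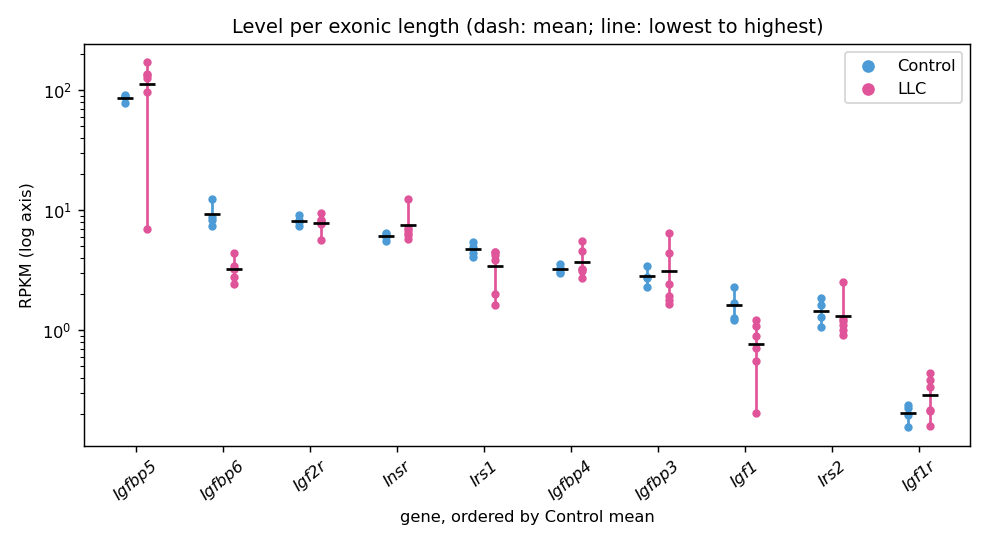
RPKM of each member on a log axis, ordered by the Control mean, in Control and LLC samples. Points are samples, dashes are means and lines run from the lowest to the highest sample. Igfbp5 is far above the next member in Control (87.0 against 9.27 RPKM), and its LLC range reaches down to 7.01 RPKM in LLC 1.

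Of the summed RPKM of the 4 binding proteins, Igfbp5 made up 82.8% to 86.6% in Control. In the 5 LLC samples other than LLC 1 its share was 87.3% to 95.8%, above every Control sample. In LLC 1 it was 34.3%, beside 31.4% Igfbp3, 22.6% Igfbp4 and 11.8% Igfbp6, a make-up seen in no other sample. A share also moves with the other genes of the sum. That of Igfbp6 was 8.09% to 11.5% in Control and had a median of 2.40% in LLC, so the share of Igfbp5 does not measure Igfbp5 alone.

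The log2 ratio of Igfbp5 to Igf1, a measure of binding protein against ligand within the same muscle, was 5.80 ± 0.379 (SD) in the 4 Control samples and 6.90 ± 0.951 (SD) in the 6 LLC samples. It was above every Control sample in 5 of 6 LLC samples and, at 5.10, below every Control sample in LLC 1. The difference of 1.10 had p = 0.0762 by an exact permutation test (two-sided, adjusted over 3 ratios 0.229), where 210 splits allow a p of 0.00952 at the least. Without LLC 1 the difference was 1.46, with p = 0.0159 by the exact permutation test, the smallest that 126 splits allow, and 0.0476 adjusted over 3 ratios. The call in this comparison thus depended on LLC 1. The adjustment over 3 ratios covers neither the choice of that sample nor that of the ratio.

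The other genes of the family were mostly silent in muscle. Of 11 further ligand, receptor, substrate and binding protein genes, 3 were tested, Igf2, Igfals and Igfbp7. The genes Ins1, Irs4, Igfbp1 and Igfbpl1 had 0 counts in all samples, and Ins2 and Igfbp2 had 1 count each in all samples together. Igfbp7, a related protein that binds IGFs only weakly, measured 36.0 to 45.2 CPM in Control and 55.4 to 80.9 CPM in LLC, with no overlap. It rose by 0.62 ± 0.13 on the log2 scale (adjusted p 0.0134 by edgeR), a call lost without Control 2 (adjusted p 0.0526) and without LLC 5, where the adjusted p was 0.0189 and the log2 fold change of 0.55 was under 1.5-fold. Igf2, the second IGF ligand, measured 8.53 ± 1.13 and 7.10 ± 0.738 CPM (adjusted p 0.177 by edgeR).

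Upstream of Igf1, none of the 6 growth hormone axis genes tested passed the threshold, with a list median of -0.02 on the log2 scale against 0.00 for all genes tested. Of 6 genes for binding protein proteases and their inhibitors, 4 were tested and none passed, with a median of 0.62, and of 0.37 without LLC 1. Behind the receptors, 0 of 13 adaptor and inhibitor genes tested and 0 of 16 genes of PI3 kinase and Akt passed by edgeR, with medians of 0.00 and 0.03. At an unadjusted p under 0.05 the edgeR counts were 1, 1, 2 and 3 in these 4 lists, and DESeq2 called 0, 1, 1 and 0 genes. With 5.63% of all genes called, lists of this length would hold few calls in any case. At an adjusted p of 0.05 or less without a minimum fold, 6.99% of all genes were called by edgeR, and in these lists they were Stat5b (0.41, adjusted p 0.0372), which carries the growth hormone signal to Igf1, and Akt2 (0.40, adjusted p 0.0221), the Akt form needed for insulin-driven glucose uptake. Both genes were singled out after their values were seen. Without LLC 1, 1 of the 13 adaptor and inhibitor genes rose, Socs3, which blocks insulin and cytokine receptors, and 2 fell, Grb14 and Ptprf, of which Ptprf measured 6.27 CPM in LLC 1 and 0.907 to 1.64 CPM in the other LLC samples. These 3 were also named with their values in view.

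Of 10 genes of glucose uptake and glycogen, 2 rose, 0 fell and the list median was 0.06. DESeq2 also called 2, and 8 of the 10 had an unadjusted p under 0.05 by edgeR. The count of calls rose to 5 with upper-quartile scaling, 5 without LLC 2 and 4 without LLC 4, and dropped to 1 without Control 1, Control 3, Control 4, LLC 5 or LLC 6. Without LLC 1, 2 genes rose and 1 fell, Tbc1d1 (-0.60, adjusted p 0.038 by edgeR), a relative of Tbc1d4. Tbc1d4, an Akt substrate that holds glucose transporters inside the cell until it is phosphorylated, rose from 10.3 ± 1.55 to 23.3 ± 7.17 CPM (log2 fold change 1.17 ± 0.22, adjusted p 0.00784 by edgeR). Ppp1r3c, a subunit that directs a phosphatase to glycogen, rose by 1.04 ± 0.27 (adjusted p 0.0429 by edgeR). The rise of Tbc1d4 was called in every fit that left out 1 sample, whereas that of Ppp1r3c was lost in 7 of 10, without any 1 of the Control samples, LLC 3, LLC 5 or LLC 6 (adjusted p up to 0.111). Slc2a4, the insulin-dependent glucose transporter GLUT4, measured 568 ± 15.0 CPM in Control and 381 ± 83.6 CPM in LLC, with no overlap. Its log2 fold change of -0.58 ± 0.15 had an adjusted p of 0.0431 by edgeR and was just short of 1.5-fold. Slc2a4 and Tbc1d1 were singled out after their values were seen.

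The 12 FoxO factors and target genes had the highest median of the pathway lists, 1.55, with 10 of 12 log2 fold changes above 0, but 2 rose and 1 fell past the threshold by edgeR. The study had already reported Fbxo32, Trim63, Eif4ebp1, Ddit4, Foxo1 and Foxo6 as changed in these muscles. As the list was chosen with such results known, its median and signs are no separate evidence of FoxO activity. Of the 12, 11 had an unadjusted p under 0.05 by edgeR, and DESeq2 called 6. With 1 sample left out the edgeR count of calls was 0 without Control 1, Control 2, Control 4 or LLC 5, 1 without Control 3 or LLC 6, 5 without LLC 4 and 7 without LLC 1. Fbxo32, the muscle ubiquitin ligase atrogin-1, measured 269 to 385 CPM in Control and 865, 788, 517, 1756 and 1001 CPM in LLC 2 to LLC 6, with 3630.0 in LLC 1. It rose by 2.03 ± 0.49 on the log2 scale (adjusted p 0.0307 by edgeR). Pdk4, a kinase that shuts off glucose oxidation, rose by 1.23 ± 0.33 (adjusted p 0.048 by edgeR), and Foxo6, a FoxO factor, fell by 1.95 ± 0.44 on the log2 scale (adjusted p 0.023 by edgeR). In the 10 edgeR fits that left out 1 sample, the call of Fbxo32 was lost without any 1 of the Control samples or LLC 5 (adjusted p up to 0.098), and that of Foxo6 without Control 1, Control 2, Control 4, LLC 5 or LLC 6 (up to 0.080). The call of Pdk4 was lost in 7 of these fits, without any 1 of the Control samples, LLC 3, LLC 5 or LLC 6 (up to 0.137). Without LLC 1, 6 of the 12 rose and 1 fell, with a median of 0.95. The 3 LLC samples with the least Igf1, which were LLC 1, LLC 5 and LLC 6, were the 3 with the most Fbxo32. They also had the lowest mitochondrial shares of the LLC libraries (22.0%, 22.9% and 25.8%). This match was seen after the values were known, and a link between the 2 genes was not tested.

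**Figure D5:**
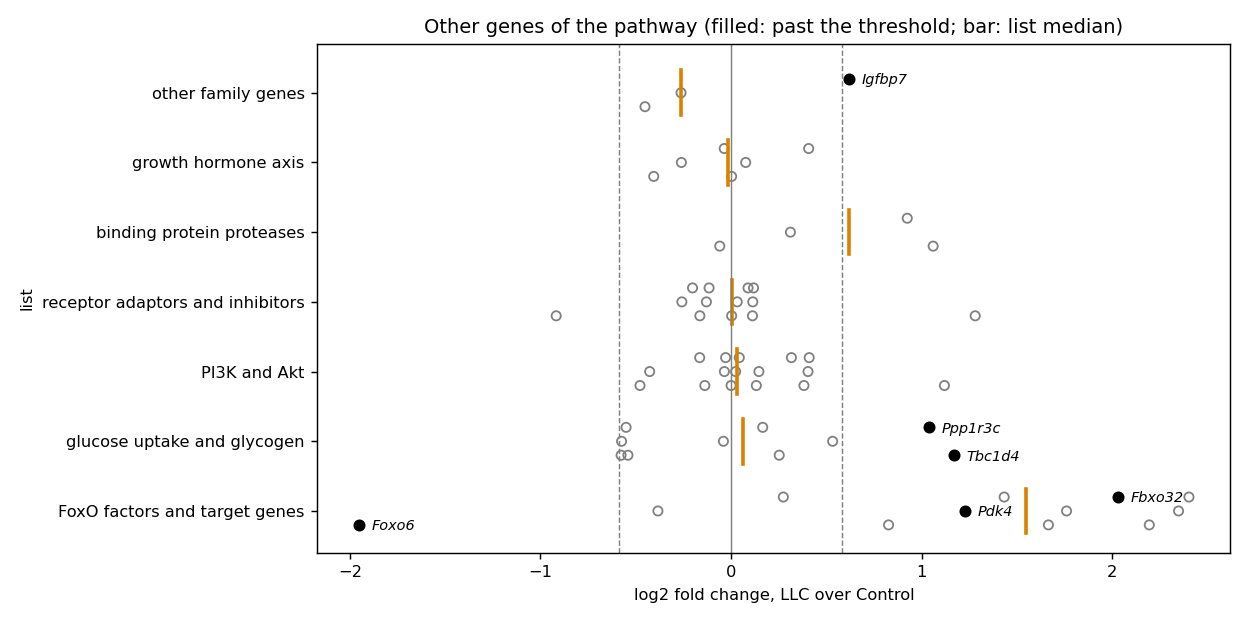
Log2 fold change, LLC over Control, of the tested genes of 7 pathway lists (horizontal axis, 1 row a list). Filled points with names passed the threshold by edgeR, open points did not, orange bars are list medians and dashed lines mark 1.5-fold. The FoxO row, a list chosen with earlier results of these data known, lies to the right with a median of 1.55. The rows of adaptors and of PI3 kinase and Akt centre on 0.00 and 0.03.

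Markers of other cell types are given beside the members because each could carry some of their transcripts. All 8 neutrophil markers rose, with sums of 1.06 to 2.27 CPM in Control and 34.9 to 75.4 in LLC. Of 8 pericyte and smooth muscle markers, 4 fell (446 to 498 and 256 to 367 CPM). Of 8 endothelial markers tested 1 fell (293 to 371 and 296 to 329 CPM), while 7 had an unadjusted p under 0.05 by edgeR. Their log2 fold changes ran from -1.13 to 0.78, with 4 above and 4 below 0, so the sum hides opposite changes. Of 8 macrophage markers tested 1 fell (18.3 to 27.3 and 12.3 to 19.4 CPM), with 3 at an unadjusted p under 0.05 by edgeR and 3 called by DESeq2. None of 10 muscle fibre markers and none of 4 adipocyte markers tested passed by edgeR (3 and 1 at an unadjusted p under 0.05, and 0 and 0 by DESeq2). The adipocyte list summed to 2757 to 2931 CPM in Control and 895 to 2629 in LLC, lowest in LLC 1. This list includes Car3 and its sum is not split by gene here, so the lower sum is not read as a loss of adipocytes. Of 5 satellite cell markers tested 2 fell (28.6 to 34.6 and 25.4 to 37.9 CPM), and of 5 Schwann cell markers tested 2 fell (38.9 to 45.0 and 21.4 to 30.1 CPM). The part of these cell types in the levels of the members was not tested.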

How the data were processed

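RNA of tibialis anterior muscle from 4 Control and 6 LLC mice was extracted with TRIZOL and made into strand-specific total RNA libraries, sequenced as read pairs in 1 lane. Per the methods, the authors mapped reads to mm10 with TopHat2 and counted them with HTSeq at default settings for RefSeq genes. FastQC and DESeq2 are also in the submitters' processing notes. The deposited values are raw counts per gene, listed by Ensembl identifier, and their annotation release is not given in the sources used here. HTSeq's default counts reads by strand, but as the methods name RefSeq genes and the files list Ensembl identifiers, whether those settings hold for these files is not known. Counts of overlapping genes are therefore uncertain. Of 39179 identifiers, 37693 were found in GENCODE M21 (mm10), which gave coordinates and exonic lengths.

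Genes were filtered by filterByExpr (edgeR 4.0.16, R 4.3.3, count minimum 10), scaled by TMM and tested by edgeR's quasi-likelihood test with group as the only term. Benjamini-Hochberg adjustment covered all 12690 genes. SEs came from the F statistic. DESeq2 1.42.0, limma 3.58.1 (voom with quality weights), other scalings, filters and thresholds, a replicate block and leaving out single samples were alternatives. Log2 CPM used a prior count of 2, and ratios added 0.5 counts. The edgeR test was tried on simulated data, and DESeq2 was not. Libraries differed from each other by more than sampling noise (chi-square per degree of freedom at least 3.71), and each mouse was 1 replicate.

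The members, the pathway and marker lists and the tests were chosen with earlier results of these data known. All members are named, with the 2 genes nearest to each called member, listed pathway genes past the threshold (up to 3 a list), and the first 3 of a marker list. Floors cover counting error only.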

Additional observations from a re-analysis of the deposited data

Results flagged for a closer look

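In 26 groups of values, formed by the members and their 3 ratios in Control and in LLC, a lowest or highest sample was sought whose gap to the next, as a share of the range of its group, exceeded Dixon's 95% critical value. Such samples were found in 4, where chance gives about 1 in 20, or 1.3. The 26 groups are not independent, as they share libraries and the ratios are made from members. The 4 are therefore not counted as separate events. In LLC, LLC 1 was the distant sample for Insr (171 CPM, gap 0.796 of the range), for Irs2 (15.8 CPM, gap 0.791) and for the log2 ratio of Igfbp5 to Igf1 (5.10, gap 0.676). In Control, the log2 ratio of Igf1r to Insr in Control 1 was -5.26, the lowest, with a gap of 0.912. The search used CPM for members and log2 values for ratios. Igfbp5 itself, at 42.1 CPM in LLC 1, did not exceed the critical value, since the other 5 LLC samples were also spread in CPM. In log2 CPM from the Control mean it was at -3.63 in LLC 1 and at 0.16 to 0.98 in the other 5, a scale on which members were not searched.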

How the results depend on the processing

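Igfbp6 passed the threshold in all 21 alternatives, with log2 fold changes from -1.62 to -1.34. Igf1 was negative in all 21 and passed in 4 of them, DESeq2, voom, without LLC 1 and an unadjusted p. Genes past the threshold numbered 715, and 475 with at least 10 counts in every sample, 1572 at an unadjusted p, and 415 to 966 with 1 sample left out (417, 438, 415 and 418 without Control 1 to 4, 966 without LLC 1). Members past it numbered 1, and 2 by DESeq2, by voom and at an unadjusted p, and 1 to 3 with 1 sample left out (3 without LLC 1). Pathway genes past it numbered 6, and 11 by DESeq2, and 1 to 14 with 1 sample left out (14 without LLC 1, 1 without LLC 5). Marker genes past it numbered 33, and 29 to 35 with 1 sample left out.

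With the replicate number as a block, over the 4 shared numbers, 112 genes, 0 pathway genes and 19 marker genes passed, Igfbp6 still did (-1.58, adjusted p 0.0342 by edgeR), and the log2 fold changes of Igf2r (0.048), Igfbp3 (-0.084) and Igfbp5 (-0.11) turned sign. Same-numbered samples are different animals, whose deviations correlated at -0.0814 to 0.126, so the numbers do not pair them, and LLC 5 and LLC 6, with no Control of their number, add nothing to that fit.

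Signs also turned for Igf2r without LLC 5 (0.018, with 1 sample left out -0.11 to 0.018), Igfbp3 by voom (-0.42) and without LLC 1 (-0.20, with 1 sample left out -0.20 to 0.27), Igfbp4 by voom (-0.019), and, as differences of medians, the ratios of Igf1r to Insr (-0.0023) and Irs2 to Irs1 (-0.18). With 1 sample left out the 3 ratios differed by 0.03 to 0.31, 0.02 to 0.51 and 0.93 to 1.46, the last, Igfbp5 to Igf1, passing without LLC 1 (1.46). Apart from left-out samples and the block, the cause of these changes was not tested. Other scalings moved the median of all genes by at most -0.03.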
